A study of Mus musculus with 23 samples.

Results

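Siglecs are cell-surface lectins of the immunoglobulin superfamily that bind sialic acids, the sugars that cap most glycans on mammalian cells. Most of them carry inhibitory motifs in the cytoplasmic tail that recruit the phosphatases encoded by Ptpn6 and Ptpn11, which dampen activating signals. Siglech lacks such motifs and signals through the adaptor encoded by Tyrobp, and in the mouse it is a classical surface marker of plasmacytoid dendritic cells. The family was followed here through 6 genes, chosen by symbol: Cd33 and Siglece (receptors of myeloid cells), Cd22 and Siglecg (inhibitory receptors best known from B cells), Siglech, and Siglec1 (sialoadhesin of spleen macrophages). Each had 1 probe set on the array, and all 6 passed the filter on low values, among 12157 tested genes of 19938 with a probe set of their own.

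Expression was measured on 23 Affymetrix Mouse Gene 1.0 ST arrays, each with RNA of 1 dendritic cell population sorted from mouse spleen. The populations were type 1 conventional dendritic cells (cDC1), type 2 conventional dendritic cells (cDC2) and plasmacytoid cells (pDC). Mice conditionally deleted for Bcl6 (cKO), which encodes a transcriptional repressor, were compared with wild-type animals (WT). There were 4 cKO and 3 WT arrays for cDC1, 5 cKO and 3 WT arrays for cDC2, and 5 cKO and 3 WT arrays for pDC. The Cre driver, the strain, the age of the mice and whether each array stands for its own animal are not given in the sources used here, so the p-values rest on a spread between arrays that may be technical.

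The markers of cDC1 and pDC separated those arrays from all others, while the cDC2 list overlapped with pDC. Summed intensity of 10 cDC1 markers was 12350 to 20461 in cKO cDC1 and 11642 to 18368 in WT cDC1, and at most 8403 in any other group. For 10 cDC2 markers it was 7979 to 11148 in cKO cDC2 and 6424 to 7745 in WT cDC2, against 3681 to 6632 in cKO pDC and 4764 to 6307 in WT pDC, with Clec4a4 and Esam below the median on every pDC array. For 8 pDC markers it was 18438 to 29171 in cKO pDC and 14709 to 28232 in WT pDC, against at most 3576 in any cDC array. Array medians ran from 29.3 to 41.2 intensity units and fell into a set of 14 arrays (up to 34.3) and a set of 9 arrays (from 38.9), each with arrays of all 6 groups. Xist, the transcript of the inactive X chromosome of females, was high on the first WT array of cDC1 (10.90 on the log2 scale), of cDC2 (11.28) and of pDC (11.89), while no other array exceeded 5.07. Bcl6 itself averaged 8.39 ± 0.29 in cKO cDC1 (SD, n = 4) against 7.42 ± 0.61 in WT cDC1 (SD, n = 3), a log2 difference of 0.97 that did not pass the limma test (adjusted p = 0.598). The Bcl6 differences were 0.69 in cDC2 (limma adjusted p = 0.756) and -0.15 in pDC (adjusted p = 1). Its probe set may lie outside the deleted part, in which case it says nothing about the deletion.

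Of the 6 Siglecs, Cd33 and Cd22 rose in cKO cDC1, Cd33 also rose in cKO cDC2, and none passed the test in pDC. All 3 pairs of WT cell types differed in Cd33, whereas no pair of cKO cell types passed the test, with cKO group means between 9.15 and 9.70. With array weights, an alternative setting, the cKO pairs of cDC1 with cDC2 and with pDC did pass. Siglech was far higher in pDC than in either cDC in both genotypes, and Siglecg kept its highest group mean in cDC2. Siglece and Siglec1 lay near or below the median of all probe sets in most groups, where a level cannot be told from background. All levels are log2 intensities, and levels are compared only within a gene, because probe sets differ in brightness.

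The 250 bases before the annotated start of 3 of these genes are shown because Cd33 and Cd22 rose together in cKO cDC1, whereas Siglech, chosen as the contrast, did not pass the test in any cell type. They are RefSeq sequences of build GRCm38.p6, given 5′ to 3′ on the strand of the gene, with motif matches in capitals.
Cd33, chr7:43533172-43533421, minus strand: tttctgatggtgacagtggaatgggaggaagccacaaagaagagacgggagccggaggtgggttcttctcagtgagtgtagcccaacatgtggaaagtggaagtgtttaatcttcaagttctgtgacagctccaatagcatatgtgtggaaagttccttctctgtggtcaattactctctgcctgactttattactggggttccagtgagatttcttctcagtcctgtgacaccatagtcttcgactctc
Cd22, chr7:30879029-30879278, minus strand: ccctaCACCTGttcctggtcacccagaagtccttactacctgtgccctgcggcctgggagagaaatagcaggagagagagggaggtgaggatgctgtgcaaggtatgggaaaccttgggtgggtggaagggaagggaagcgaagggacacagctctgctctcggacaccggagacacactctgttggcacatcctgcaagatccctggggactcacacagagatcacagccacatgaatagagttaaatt
Siglech, chr7:55767934-55768183, plus strand: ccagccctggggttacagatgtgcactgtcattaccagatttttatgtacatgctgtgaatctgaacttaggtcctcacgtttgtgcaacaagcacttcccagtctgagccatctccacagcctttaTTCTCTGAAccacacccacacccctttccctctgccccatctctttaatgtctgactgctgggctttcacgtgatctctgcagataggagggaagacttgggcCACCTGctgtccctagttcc

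RefSeq promoter windows were matched for 5 of the 6 Siglecs, all on chromosome 7 (2 windows for Siglecg, 1 for each of the others). Windows of 300 bases, 250 before and 50 after the start, were searched on both strands for 4 motifs. These were TTCNNNGAA, the core letters shared by BCL6 and STAT sites, GAGGAAGT of PU.1, the E-box CAGGTG, and the joint ETS-IRF composite element. TTCNNNGAA was found in 8.3% of 32841 promoter windows, GAGGAAGT in 3.2%, CAGGTG in 20.2% and the ETS-IRF element in 2.72%. The Cd22 window held 1 E-box, as CACCTG on the printed strand, starting 245 bases before the start. The Siglech window held TTCTCTGAA starting 123 bases before the start and CACCTG starting 20 bases before it, and these matches do not overlap. The windows of Cd33, Siglece and Siglecg held no match to the 4 motifs. A match is a description of letters and was not tested as a binding site.

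Cd33 read 9.41, 9.04, 9.20 and 8.96 in cKO cDC1, against 4.77, 4.61 and 4.04 in WT cDC1. Every cKO array lay far above every WT array, a separation that 4.22% of all genes showed in cDC1, and all 3 WT arrays lay below the median of their array. The log2 difference was 4.68 ± 0.27 (limma SE, n = 4 and 3, adjusted p = 9.81e-11). Since the WT level cannot be told from background, the fold is better read as a bound, at least 17.0-fold when the WT arrays are set at their array medians.

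In cKO cDC2 the Cd33 level was 9.79, 10.17, 9.21, 9.69 and 9.64, against 6.86, 7.52 and 7.33 in WT cDC2. The groups again did not overlap, as for 4.71% of all genes in cDC2, and here the WT arrays were above their array medians. The log2 difference was 2.46 ± 0.26 (limma SE, n = 5 and 3, adjusted p = 2.32e-06), or 5.51-fold.

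In cKO pDC Cd33 read 9.63, 9.99, 8.82, 9.71 and 9.54, against 9.39, 8.79 and 8.90 in WT pDC. These groups overlapped, and the log2 difference of 0.52 ± 0.26 (95% interval -0.02 to 1.05) did not pass the limma test (adjusted p = 1). Cd33 in WT pDC, at 9.02 ± 0.32 (SD, n = 3), lay near the levels of cKO cDC1 and cKO cDC2.

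The genotype effect on Cd33 was itself tested between cell types. It was larger in cDC1 than in cDC2 by 2.22 ± 0.37 (limma SE, adjusted p = 0.0034), in a comparison that called 0.28% of all genes. It was larger in cDC1 than in pDC by 4.17 ± 0.37 (limma adjusted p = 3.52e-07), with 0.329% of genes called, and larger in cDC2 than in pDC by 1.95 ± 0.36 (limma adjusted p = 0.00832), with 0.485% called. Both differences with cDC1 include the WT cDC1 level that cannot be told from background. In a fit added after the data were seen, in which every value below its array median was set at that median, they were 1.63 ± 0.35 against cDC2 (limma adjusted p = 0.0407) and 3.57 ± 0.35 against pDC (adjusted p = 2.01e-06). Without the 3 WT arrays of high Xist the difference between the cDC2 and pDC effects was 1.58 and no longer passed (limma adjusted p = 0.175). That difference passed in each of the 23 fits that left out 1 array. Within the 14 arrays of lower median the cDC1 and cDC2 effects differed by 2.01 (limma adjusted p = 0.697), and within the 9 of higher median by 2.70 (adjusted p = 0.255), neither past the threshold. The cDC2 and pDC effects differed by 2.14 (adjusted p = 0.34) and 1.61 (adjusted p = 0.314) in these sets, and the cDC1 and pDC effects by 4.14 (adjusted p = 0.00988) and 4.31 (adjusted p = 0.0421), which passed in both.

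**Figure D1:**
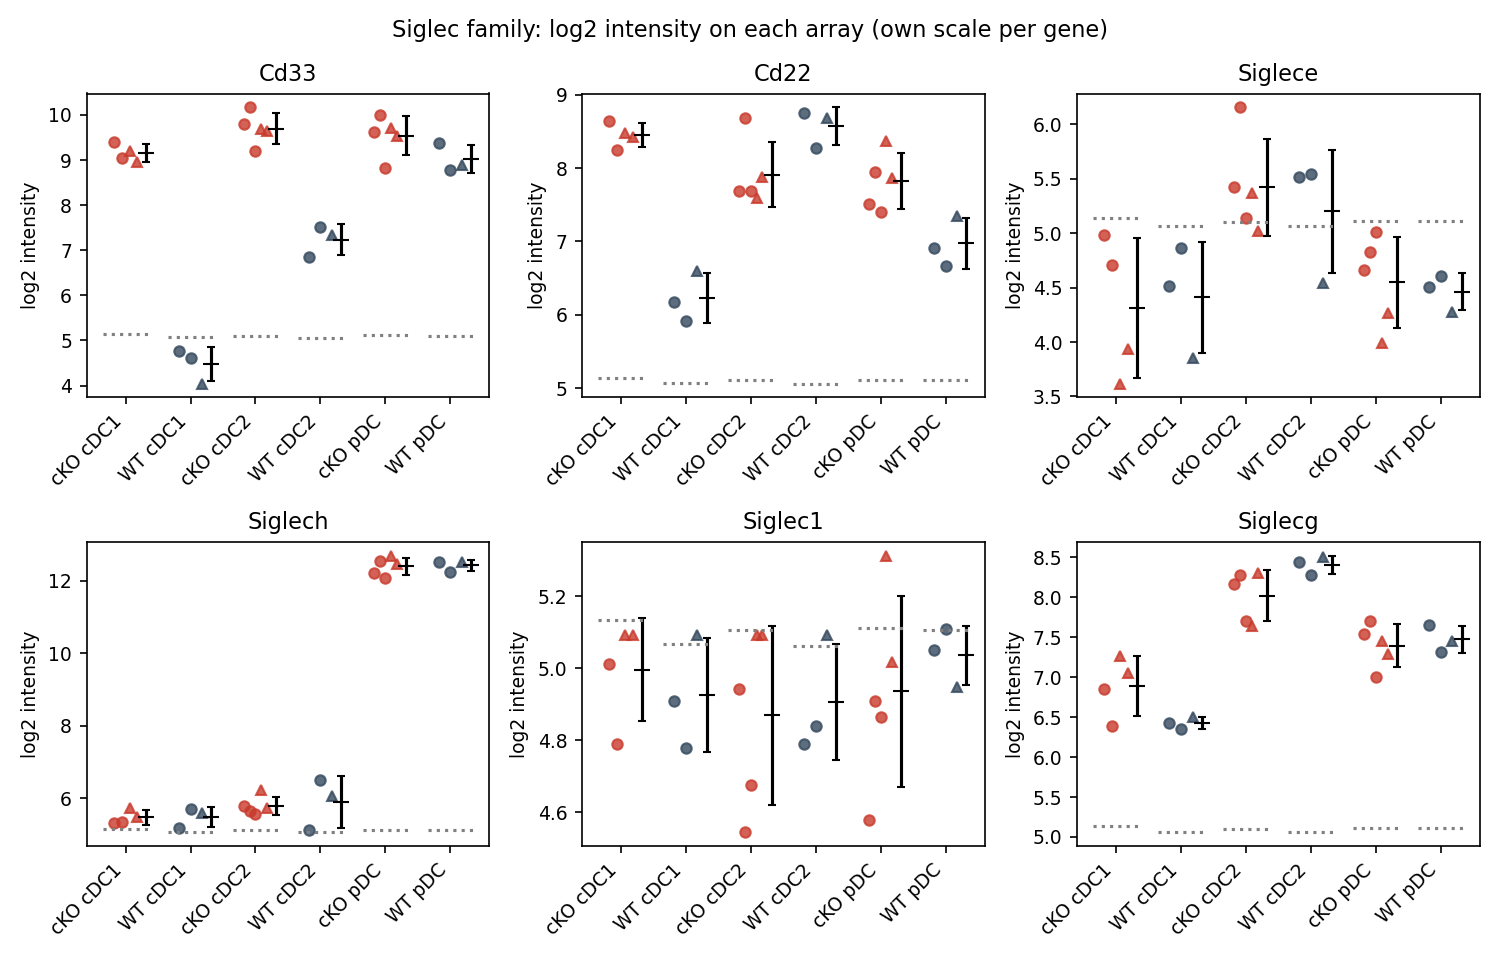
Log2 intensity (vertical axis, own scale for each gene) of the 6 Siglecs on each array, by group. Red marks are cKO and dark blue marks WT arrays, circles are arrays with a median below 35 and triangles arrays above it, the black bar is the group mean with its SD, and the dotted line is the mean array median of the group. Cd33 in WT cDC1 sits below the dotted line while cKO cDC1 averages 9.15, and Siglech is above 12 in pDC only.

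Cd22 read 8.65, 8.24, 8.48 and 8.43 in cKO cDC1, against 6.17, 5.91 and 6.60 in WT cDC1. The groups did not overlap, and every array of both groups was above its array median. The log2 difference was 2.22 ± 0.27 (limma SE, n = 4 and 3, adjusted p = 1.43e-05).

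In cDC2 the Cd22 levels ran the other way. They were 7.69, 8.68, 7.69, 7.60 and 7.88 in cKO cDC2, against 8.76, 8.28 and 8.68 in WT cDC2. A single cKO array, the second, lay among the WT arrays, and the log2 difference of -0.67 ± 0.26 (95% interval -1.20 to -0.13) did not pass the limma test over all genes (adjusted p = 0.421, unadjusted p = 0.0166).

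In pDC Cd22 was 7.51, 7.95, 7.40, 8.38 and 7.87 in cKO arrays, against 6.91, 6.66 and 7.35 in WT arrays. All 5 cKO arrays lay above all 3 WT arrays, a separation that 0.666% of all genes showed in pDC. The log2 difference of 0.85 ± 0.26 (95% interval 0.31 to 1.38) did not pass the limma test (adjusted p = 1, unadjusted p = 0.00323), in a comparison where 0.0329% of genes did.

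The genotype effect on Cd22 differed between cDC1 and cDC2 by 2.89 ± 0.37 (limma SE, adjusted p = 0.000184). Between cDC1 and pDC it differed by 1.38 ± 0.37 (adjusted p = 0.23) and between cDC2 and pDC by -1.51 ± 0.36 (adjusted p = 0.0737), neither past the limma threshold. The last of these passed in 3 of the 23 fits that left out 1 array, at limma adjusted p values of 0.0136 without cKO cDC2 array 2, 0.0491 without WT pDC array 3 and 0.0443 without cKO pDC array 3. It also passed with quantile normalization (limma adjusted p = 0.0206), the array set as a term (0.0293) or a random replicate block (0.0322). Within the lower-median arrays the cDC1 and cDC2 effects on Cd22 differed by 2.90 (limma adjusted p = 0.0729) and within the higher-median arrays by 2.80 (adjusted p = 0.269).

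**Figure D2:**
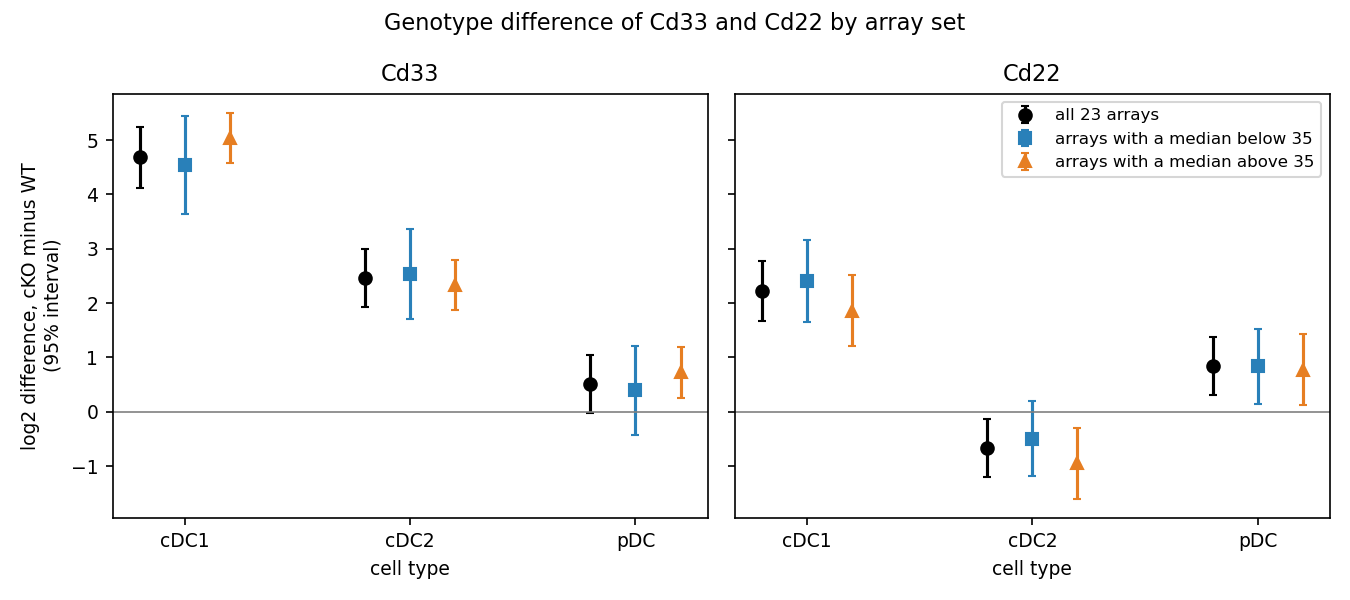
Log2 difference between cKO and WT arrays (vertical axis, with 95% intervals) for Cd33 and Cd22 in each cell type, from all 23 arrays and within each set of arrays. In cDC1 the Cd33 difference is 4.54 within the lower-median and 5.04 within the higher-median arrays, and the Cd22 difference 2.40 and 1.86.

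Counted over the family, 2 of 6 Siglecs rose and none fell in cKO cDC1, where 0.814% of all tested genes rose and 0.831% were called in either direction. In cDC2 1 of 6 rose, where 1.16% of tested genes rose and 1.56% were called. In pDC limma called 0 of 6, with 1 of 6 (Cd22) at an unadjusted p under 0.05. The median log2 difference over the 6 genes was 0.27 in cDC1, -0.08 in cDC2 and 0.03 in pDC, beside medians over all tested genes of 0.06, 0.07 and 0.05. Both Cd33 calls and the Cd22 call in cDC1 passed in each of the 23 fits that left out 1 array, with log2 differences of 4.47 to 4.83 for Cd33 in cDC1, 2.27 to 2.60 for Cd33 in cDC2 and 2.07 to 2.41 for Cd22 in cDC1. Within the 9 higher-median arrays alone Cd22 in cDC1 was 1.86 and did not pass (limma adjusted p = 0.134), while within the 14 lower-median arrays it was 2.40 and did (adjusted p = 0.00976).

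**Figure D3:**
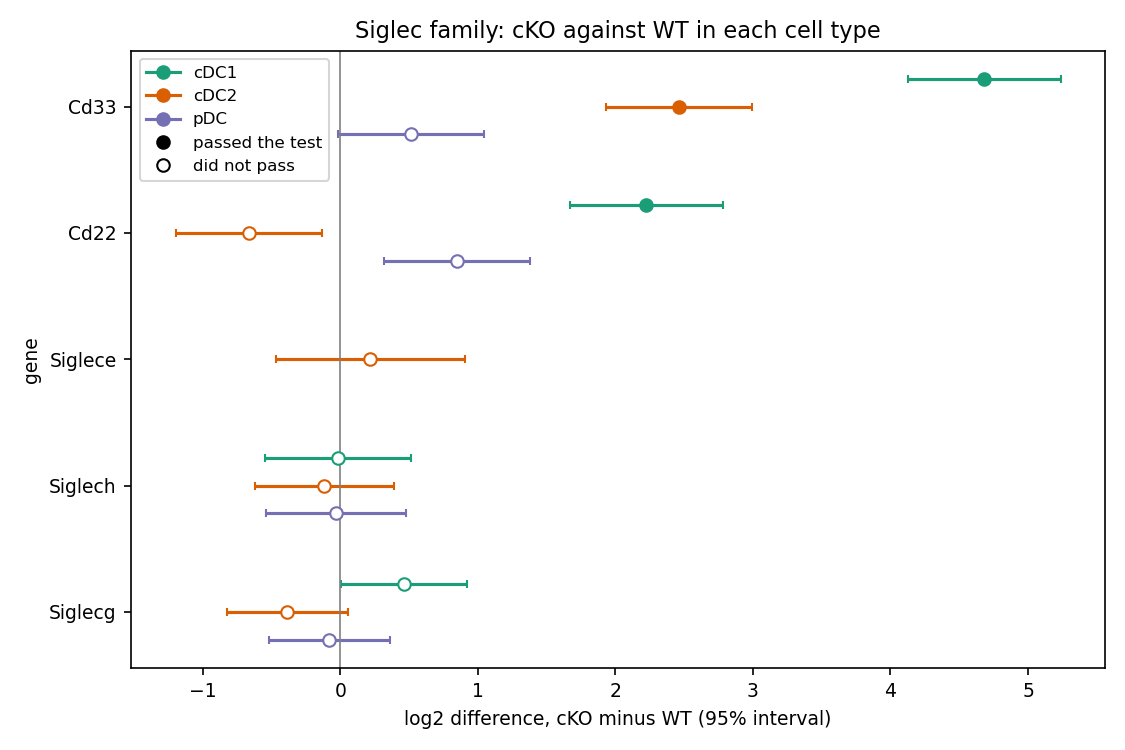
Log2 difference, cKO minus WT, with its 95% interval (horizontal axis) for 5 Siglecs in cDC1, cDC2 and pDC, leaving out Siglec1 and the Siglece comparisons in which both groups average below their array medians. Filled points passed the limma test over all genes; the 3 filled points are Cd33 in cDC1 (4.68), Cd33 in cDC2 (2.46) and Cd22 in cDC1 (2.22).

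Since sorted samples can hold other cells, and fewer cells of a type and less RNA per cell cannot be told apart in such samples, markers of the cells best known for these receptors are given beside the changes. Of 9 B cell markers tested, limma called 0 in any of the 3 genotype comparisons, with 0 in cDC1, 1 in cDC2 and 1 in pDC at an unadjusted p under 0.05. Their summed intensity was 236 to 399 in cKO cDC1 against 308 to 605 in WT cDC1, and Cd79a, Ebf1, Fcer2a, Cr2 and Vpreb3 were below the median on every cDC1 array. Cd79b, Ms4a1 and Blk were above it on every cDC1 array. Ms4a1 averaged 6.62 ± 0.60 in cKO cDC1 against 7.52 ± 0.82 in WT cDC1 (SD, n = 4 and 3). Cd22 was higher in cKO cDC1, where the summed B cell markers overlapped between the genotypes (median 310 in cKO and 333 in WT arrays). In cDC2, where Cd22 averaged lower in cKO arrays without passing, the B cell sums were 206 to 343 in cKO arrays (median 239) against 272 to 403 in WT arrays (median 301). Ms4a1, which encodes CD20, averaged 4.31 ± 0.56 in cKO cDC2 (SD, n = 5) against 5.82 ± 0.55 in WT cDC2 (SD, n = 3), a difference of -1.51 that did not pass (limma adjusted p = 0.212). In pDC the sums were 511 to 1090 in cKO arrays against 551 to 988 in WT arrays. The part of B cells in the Cd22 levels was not tested in any cell type.

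Myeloid markers moved beside Cd33. Of 8 markers of monocytes and neutrophils tested, 1 (Csf1r, the receptor of macrophage colony-stimulating factor) rose in cKO cDC1, and their summed intensity, over 10 on the array, was 673 to 1969 there against 392 to 709 in WT cDC1. The Csf1r call in cDC1 was lost without WT cDC1 array 2 (limma adjusted p = 0.0771). In cDC2 2 of 8 rose (Ccr2 and Csf1r) and 1 fell (Csf3r), with sums of 1092 to 2180 in cKO arrays against 622 to 1582 in WT arrays, and the Csf3r call was lost without WT cDC2 array 3 (limma adjusted p = 0.0878). The neutrophil markers Ly6g and Cxcr2 were below the median on every cDC array, whereas S100a8 and S100a9, abundant in neutrophils and monocytes, were not. S100a8 averaged 6.45 ± 2.01 in cKO cDC1 against 5.45 ± 1.51 in WT cDC1, and 6.37 ± 1.27 in cKO cDC2 against 5.66 ± 2.06 in WT cDC2 (SD). S100a9 averaged 7.30 ± 1.68 in cKO cDC1 against 6.42 ± 1.20 in WT cDC1, and 7.15 ± 1.28 in cKO cDC2 against 6.01 ± 2.50 in WT cDC2 (SD). Both varied widely between arrays of a group, and neither passed the limma test (adjusted p = 1 each).

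Of 12 macrophage markers tested, Adgre1 rose in cKO cDC1, with sums over 13 on the array of 623 to 880 against 554 to 768 in WT cDC1, and Mertk and Cd163 rose in cKO cDC2, with sums of 781 to 1380 against 645 to 1228 in WT cDC2. The Adgre1 call held in 12 of 23 fits that left out 1 array (limma adjusted p up to 0.282, without WT cDC1 array 2), and the Cd163 call was lost without WT cDC2 array 1 (adjusted p = 0.111) or 3 (0.0686). Of 10 cDC2 markers 4 (Cd209a, Sirpa, Itgam and Zeb2) rose in cKO cDC1, with sums of 1206 to 1429 against 399 to 425 in WT cDC1, and 6424 to 7745 in WT cDC2. Of these 10, 3 rose in cKO cDC2 (Clec10a, Itgam and Cd209a) and 2 fell (Clec4a4 and Tlr7). Means in cKO against WT cDC2 were 8.19 and 5.78 for Clec10a, 9.67 and 8.41 for Itgam, and 11.49 and 10.49 for Cd209a. They were 4.83 and 7.55 for Clec4a4, its cKO mean below the mean array median, and 6.48 and 8.59 for Tlr7. Of the fits that left out 1 array, the Clec10a call held in 22 of 23, Itgam in 21, Cd209a in 10, and Clec4a4 and Tlr7 in all 23.

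Markers of further cell types differed between the cDC2 groups to varying degrees. Of 10 cDC1 markers 2 rose there, Cd36 by 1.56 ± 0.27 (limma adjusted p = 0.00141) and Naaa by 1.10 ± 0.26 (adjusted p = 0.0247), and the Naaa call held in 18 of 23 fits that left out 1 array (adjusted p up to 0.185, without WT cDC2 array 1). The cDC1 sums were 1710 to 2961 in cKO cDC2 against 1178 to 2102 in WT cDC2, and the pDC sums 1999 to 3576 against 1253 to 2082. The sums of 10 T and NK cell markers did not overlap, at 734 to 1260 in cKO cDC2 against 535 to 631 in WT cDC2. Limma called 0 of the 8 tested T and NK cell markers there, with 4 at an unadjusted p under 0.05 and a median log2 difference of 0.66, beside 0.07 over all genes. In cDC1 the T and NK cell sums were 427 to 603 in cKO arrays against 424 to 474 in WT arrays. The part of all these markers in the Cd33 results was not tested.

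Among WT cells the order of Cd33 was pDC at 9.02 ± 0.32, cDC2 at 7.24 ± 0.34 and cDC1 at 4.47 ± 0.38 (SD, n = 3 each), and all neighbours differed. WT cDC1 was below WT cDC2 by a log2 difference of -2.76 ± 0.29 (limma SE, adjusted p = 4.11e-07), or at least 4.50-fold with the cDC1 arrays at their medians. WT cDC1 was below WT pDC by -4.55 ± 0.29 (limma adjusted p = 5.03e-11), at least 15.5-fold, and WT cDC2 below WT pDC by -1.79 ± 0.29 (limma adjusted p = 8.47e-05).

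In cKO cells the corresponding Cd33 means were 9.15 ± 0.20 in cDC1 (n = 4), 9.70 ± 0.34 in cDC2 and 9.54 ± 0.44 in pDC (SD, n = 5 each). None of the 3 pairs passed the limma test. The log2 difference was -0.54 (95% interval -1.03 to -0.06, adjusted p = 0.208) for cDC1 minus cDC2, -0.38 (-0.87 to 0.10, adjusted p = 0.304) for cDC1 minus pDC, and 0.16 (-0.30 to 0.62, adjusted p = 0.716) for cDC2 minus pDC. The intervals leave room for differences of up to about 1.03 on the log2 scale. With array weights cDC1 minus cDC2 was -0.6 (limma adjusted p = 0.0127) and cDC1 minus pDC -0.65 (limma adjusted p = 0.00171), and both passed.

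For Cd22 the order in WT was cDC2 at 8.57 ± 0.26, pDC at 6.98 ± 0.35 and cDC1 at 6.23 ± 0.35 (SD, n = 3 each). WT cDC1 was below WT cDC2 by -2.35 ± 0.29 (limma SE, adjusted p = 4.21e-06) and WT cDC2 above WT pDC by 1.60 ± 0.29 (limma adjusted p = 0.000313), which did not pass within the higher-median arrays (adjusted p = 0.063). The lower neighbours, WT cDC1 and WT pDC, differed by -0.75 ± 0.29, which did not pass (limma adjusted p = 0.0962). That difference passed when arrays of the same replicate number were blocked among WT cells (adjusted p = 0.00874). It also passed with quantile normalization (limma adjusted p = 0.0152) or the array set as a term (0.0497). In cKO cells Cd22 averaged 8.45 ± 0.17 in cDC1 (n = 4), 7.91 ± 0.44 in cDC2 and 7.82 ± 0.39 in pDC (SD, n = 5 each), and no pair passed the limma test. The differences were 0.54 for cDC1 minus cDC2 (adjusted p = 0.212), 0.63 for cDC1 minus pDC (adjusted p = 0.0641) and 0.09 for cDC2 minus pDC (adjusted p = 0.863). Without cKO cDC2 array 2 the first was 0.74 and passed (limma adjusted p = 0.0371), and the second passed without that array (adjusted p = 0.0329) or without cKO pDC array 4 (adjusted p = 0.0245). With array weights both passed (limma adjusted p = 0.0133 and 0.00162). The second also passed with the array set as a term (limma adjusted p = 0.0403) or a random replicate block (0.0391).

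Siglecg, which in B cells restrains B cell receptor signalling, read 6.85, 6.39, 7.26 and 7.05 in cKO cDC1, against 6.43, 6.35 and 6.50 in WT cDC1. It read 8.17, 8.28, 7.71, 7.65 and 8.30 in cKO cDC2, against 8.44, 8.28 and 8.50 in WT cDC2. In pDC the levels were 7.54, 7.70, 7.0, 7.45 and 7.29 in cKO arrays, against 7.65, 7.32 and 7.45 in WT arrays. The genotypes overlapped in each cell type, and no log2 difference passed the limma test. It was 0.46 ± 0.22 for cDC1 (adjusted p = 1), -0.38 ± 0.21 for cDC2 (adjusted p = 0.966) and -0.08 ± 0.21 for pDC (adjusted p = 1).

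Siglecg differed between cell types. WT cDC1 was below WT cDC2 by -1.98 ± 0.24 (limma SE, adjusted p = 3.02e-06) and below WT pDC by -1.05 ± 0.24 (limma adjusted p = 0.00304), and WT cDC2 was above WT pDC by 0.93 ± 0.24 (limma adjusted p = 0.00864). Without the 3 WT arrays of high Xist both differences with WT pDC no longer passed (limma adjusted p = 0.0595 for cDC1 and 0.0537 for cDC2). Within the higher-median arrays none of the 3 passed (adjusted p = 0.0519, 0.188 and 0.16 in the order given), and within the lower-median arrays the last did not (0.0817). In cKO cells cDC1 was below cDC2 by -1.13 ± 0.19 (limma adjusted p = 0.000255) and cDC2 above pDC by 0.63 ± 0.18 (limma adjusted p = 0.0152). The cKO cDC1 and pDC groups differed by -0.51 ± 0.19 without passing (limma adjusted p = 0.0718). That difference passed without cKO cDC1 array 3 (adjusted p = 0.0389) or cKO pDC array 3 (adjusted p = 0.0305). It also passed with quantile normalization (limma adjusted p = 0.00976), array weights (0.00823), the array set as a term (0.0339) or a random replicate block (0.0437). The cKO cDC1 and cDC2 call was lost within the higher-median arrays (adjusted p = 0.142), and the cKO cDC2 and pDC call within these (0.169) and within the lower-median arrays (0.0927).

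Siglech read 12.21, 12.53, 12.08, 12.69 and 12.46 in cKO pDC, against 12.52, 12.24 and 12.51 in WT pDC. The genotypes overlapped, with a log2 difference of -0.03 (95% interval -0.54 to 0.48, limma adjusted p = 1). On the cDC arrays of either genotype Siglech lay between 5.11 and 6.50, low but above the median of every array.

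The separation of Siglech between cell types was the widest among the 6 genes in both genotypes. cKO cDC1 was below cKO pDC by -6.93 ± 0.22 (limma SE, adjusted p = 4.84e-16) and cKO cDC2 below cKO pDC by -6.61 ± 0.21 (limma adjusted p = 3.7e-16). In WT cells cDC2 was below pDC by -6.53 ± 0.27 (limma adjusted p = 2.52e-13). The cDC1 and cDC2 neighbours did not differ past the threshold, with -0.32 in cKO cells (limma adjusted p = 0.593) and -0.41 in WT cells (adjusted p = 0.647). Genotype differences in the cDC were -0.02 in cDC1 and -0.11 in cDC2 (limma adjusted p = 1 each).

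Siglece, a receptor of neutrophils, monocytes and macrophages, was above the array median on 7 of 23 arrays, 6 of them cDC2 arrays. It read 5.42, 6.15, 5.14, 5.37 and 5.01 in cKO cDC2, against 5.51, 5.54 and 4.54 in WT cDC2, and the genotypes overlapped (log2 difference 0.22 ± 0.33, limma adjusted p = 1). In cKO cDC1 it ran from 3.62 to 4.98 and in WT cDC1 from 3.86 to 4.86, and in cKO pDC from 3.99 to 5.01 and in WT pDC from 4.27 to 4.61. The cDC1 and pDC groups averaged below their array medians, so the sizes of their differences from cDC2 cannot be read. Among cKO cells cDC1, above its array median on 1 of 4 arrays, was lower than cDC2 (limma adjusted p = 0.0205), a call lost without cKO cDC1 array 3 (adjusted p = 0.116), cKO cDC1 array 4 (0.0869) or cKO cDC2 array 2 (0.0694). The cKO cDC2 level was above that of cKO pDC by at least 1.24-fold (limma adjusted p = 0.0321), a call lost without cKO cDC2 array 1 (0.0551), 2 (0.11) or 4 (0.0529), or without cKO pDC array 4 (0.0975) or 5 (0.0715). With every value below its array median set at that median, neither cKO pair passed (limma adjusted p = 0.384 and 0.162). Nor did either pass with quantile normalization (limma adjusted p = 0.0793 and 0.0894) or within the lower-median arrays (0.204 and 0.0626). In WT cells neither the difference of cDC2 from cDC1 (limma adjusted p = 0.331) nor that from pDC (adjusted p = 0.25) passed the threshold. Both passed with the replicate block within WT arrays (adjusted p = 0.026 and 0.0204) and with the array set as a term (0.029 and 0.0249). Neither passed with values set at the array medians (0.573 and 0.473).

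Siglec1 was above the array median on 4 of 23 arrays and ran from 4.54 to 5.31 over all arrays. The same intensity of 34.09 recurred on 5 arrays, all of them in the higher-median set. No group mean lay above the mean array median of its group, so no difference is given. The 4 arrays above the median were cKO cDC1 array 1, cKO pDC array 4 and WT pDC arrays 1 and 2. Siglec1 is known from metallophilic macrophages of the splenic marginal zone. Of 13 splenic macrophage markers on the array, 7 were below the median on every cKO cDC1 array and 4 on every WT cDC1 array, 2 on every cKO cDC2 array and 4 on every WT cDC2 array, and 5 on every pDC array of each genotype. Cd5l was below it in all 6 groups, whereas Adgre1, Timd4, Vcam1 and Hmox1 were not below it on all arrays of any group.

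Read over the family, 3 of 6 Siglecs were called between WT cDC1 and WT cDC2 (6.05% of all genes), 3 of 6 between WT cDC1 and WT pDC (13.5%) and 4 of 6 between WT cDC2 and WT pDC (12.7%). Among cKO cells the counts were 2 of 6 for cDC1 and cDC2 (8.95%), 1 of 6 for cDC1 and pDC (20.4%) and 3 of 6 for cDC2 and pDC (20.8%). Different members made up the counts. The cKO counts for cDC1 and cDC2 and for cDC2 and pDC each include Siglece, whose calls were lost with values below the array medians set at them. Cd33 was called in all 3 WT pairs and in no cKO pair, and Siglech in the pairs with pDC in both genotypes. With array weights, however, Cd33 was called in the cKO pairs of cDC1 with cDC2 and with pDC.

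Likeness of pattern was measured by Pearson's r over the 23 arrays, as a description of arrays that share cell types, genotypes and array sets. Cd33 was most like Cd164 (r = 0.919), Cd209d (0.907) and Cybb (0.906). Siglech was most like Ly6d (0.991), Havcr1 (0.982) and Cmah (0.982), Siglecg like Elk3 (0.918), Mycbp2 (0.898) and Sirpa (0.876), and Cd22 less closely like Ctnnd2 (0.81), Lgals9 (0.768) and St14 (0.759). The nearest for Siglece were Tox (0.853), Epb41l3 (0.839) and Spry2 (0.825), and for Siglec1 Adgrb2 (0.886), Kcng2 (0.856) and Klk10 (0.852), all read against levels near background. Between the Siglecs themselves r was 0.547 for Cd33 and Cd22, 0.54 for Cd22 and Siglecg, 0.423 for Cd33 and Siglecg, and -0.189 for Cd22 and Siglech.

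The other genes of the Siglec and sialic acid pathway were described from lists. Of 3 other Siglecs listed, Siglecf and Siglec15 were tested, and limma called neither in any genotype comparison, with 0 at an unadjusted p under 0.05. Their differences were 0.25, 0.05 and 0.13 for Siglecf and 0.03, -0.01 and -0.04 for Siglec15 in cDC1, cDC2 and pDC.

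Of 9 signalling partners 8 were tested. None passed in cDC1 or pDC, where none had an unadjusted p under 0.05 either, and 1 of 8 rose in cDC2. That gene was Blnk, an adaptor of B cell receptor signalling that is also expressed in pDC. It averaged 6.44 ± 0.17 in cKO cDC2 (SD, n = 5) against 4.85 ± 0.33 in WT cDC2 (SD, n = 3), where it was below every array median. The log2 difference was 1.58 ± 0.24 (limma SE, adjusted p = 0.000368), or at least 2.60-fold with WT arrays at their medians, and it passed in each of 23 fits that left out 1 array. In pDC Blnk averaged 10.29 in cKO and 10.28 in WT arrays. Among the others, Syk, the kinase that acts downstream of Tyrobp, differed by 0.58 in pDC (limma adjusted p = 1). Ptpn6, named after its values were seen, encodes a phosphatase that inhibitory Siglecs recruit, and it differed by 0.22 in cDC1, -0.10 in cDC2 and 0.51 in pDC, and Tyrobp by 0.49, 0.02 and 0.11 in the same order, none past the limma test (adjusted p = 1 each). The list median was 0.09 in cDC1, 0.04 in cDC2 and 0.20 in pDC, beside 0.06, 0.07 and 0.05 over all tested genes.

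All 8 genes listed for sialic acid synthesis and turnover were tested. None passed in cDC1 or pDC (0 at an unadjusted p under 0.05), and 1 of 8 fell in cDC2. It was Npl, the lyase that breaks down free sialic acid rather than making it. Npl averaged 4.94 ± 0.22 in cKO cDC2 (SD, n = 5) against 6.34 ± 0.22 in WT cDC2 (SD, n = 3), a log2 difference of -1.40 ± 0.20 (limma SE, adjusted p = 0.000128) that passed in each of 23 fits leaving out 1 array. Since Npl was above the array median on 1 of 5 cKO cDC2 arrays, the size is affected by background, and with values below the array medians set at them it was -1.23 ± 0.18 (limma adjusted p = 0.000197). Npl was higher in WT cDC2 than in WT cDC1 by at least 2.42-fold (limma adjusted p = 3.47e-06). In cKO cells cDC1 and cDC2 both averaged below their array medians, so no difference is given. Of the genes that did not pass, Nanp, the phosphatase of sialic acid synthesis, had the largest difference in cDC1 at 0.68, and Slc35a1, the transporter of activated sialic acid into the Golgi, in pDC at -0.36 (limma adjusted p = 1 each). The list median was 0.11 in cDC1, 0.04 in cDC2 and 0.02 in pDC. Cmah, the hydroxylase that turns the Neu5Ac form of sialic acid into Neu5Gc, was named after its values were seen and averaged 5.82 in cKO cDC2 against 4.99 in WT cDC2, below the mean array median there, and did not pass (limma adjusted p = 0.232).

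Of 20 sialyltransferases, the enzymes that add sialic acid to glycans, 14 were tested. Limma called none in any cell type, with 1 of 14 in cDC1, 2 of 14 in cDC2 and 0 of 14 in pDC at an unadjusted p under 0.05. The largest difference was that of St8sia6 in cDC2, at -0.72 ± 0.21 (limma adjusted p = 0.127). In cDC2 St3gal1, named after its values were seen, differed by 0.70 ± 0.31 (adjusted p = 0.667). The largest difference in cDC1 was 0.60 for St6gal1, and in pDC 0.68 for St6galnac4 (limma adjusted p = 1 each). The list median was 0.00 in cDC1, 0.02 in cDC2 and 0.07 in pDC. Of 6 genes for removal and editing of sialic acid 3 were tested and of the 3 protein ligands (Cd24a, Spn and Selplg) all 3, and limma called none of them, with 0 at an unadjusted p under 0.05. The largest differences for removal and editing were -0.32 in cDC1 and 0.42 in cDC2, both of Casd1, the sialic acid O-acetyltransferase, and 0.24 in pDC of Siae, the esterase that removes such acetyl groups. Among the ligands they were -0.38 in cDC1 and 0.48 in pDC, both of Spn, which encodes the mucin CD43. Selplg, the mucin ligand of P-selectin, differed by 0.75 ± 0.38 in cDC2 (limma adjusted p = 0.841).

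Several sialic acid genes differed between cell types, and the following were chosen after their values were seen. Cmah averaged 5.04 ± 0.23 in cKO cDC1 (n = 4), 5.82 ± 0.09 in cKO cDC2 and 10.22 ± 0.54 in cKO pDC (SD, n = 5 each), against 4.91 ± 0.31, 4.99 ± 0.18 and 9.92 ± 0.68 in the WT cells of the same types (n = 3 each). The cKO cDC1, WT cDC1 and WT cDC2 means lay below the array medians of their groups. With values below those medians set at them, WT cDC1 was below WT pDC by -4.77 ± 0.30 (limma adjusted p = 5.28e-11). Gne, whose product starts sialic acid synthesis, was likewise lower in WT cDC1 than in WT pDC by -2.14 ± 0.45 (limma adjusted p = 0.00144).

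Transferase genes followed other orders. St8sia6 was lower in WT cDC1 than in WT cDC2 by -3.41 ± 0.24 (limma adjusted p = 8.22e-10), and higher in WT cDC2 than in WT pDC by 3.0 ± 0.24 (adjusted p = 3.14e-09). St3gal5, the synthase of the ganglioside GM3, was higher in WT cDC1 than in WT pDC by 3.07 ± 0.29 (limma adjusted p = 3.71e-08). St8sia1, which makes the ganglioside GD3, was lower in WT cDC1 than in WT cDC2 by -2.19 ± 0.33 (limma adjusted p = 8.06e-05) and than in WT pDC by -2.16 ± 0.33 (adjusted p = 4.54e-05). Blnk was also lower in WT cDC1 than in WT pDC, by at least 37.0-fold (limma adjusted p = 1.08e-12).

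**Figure D4:**
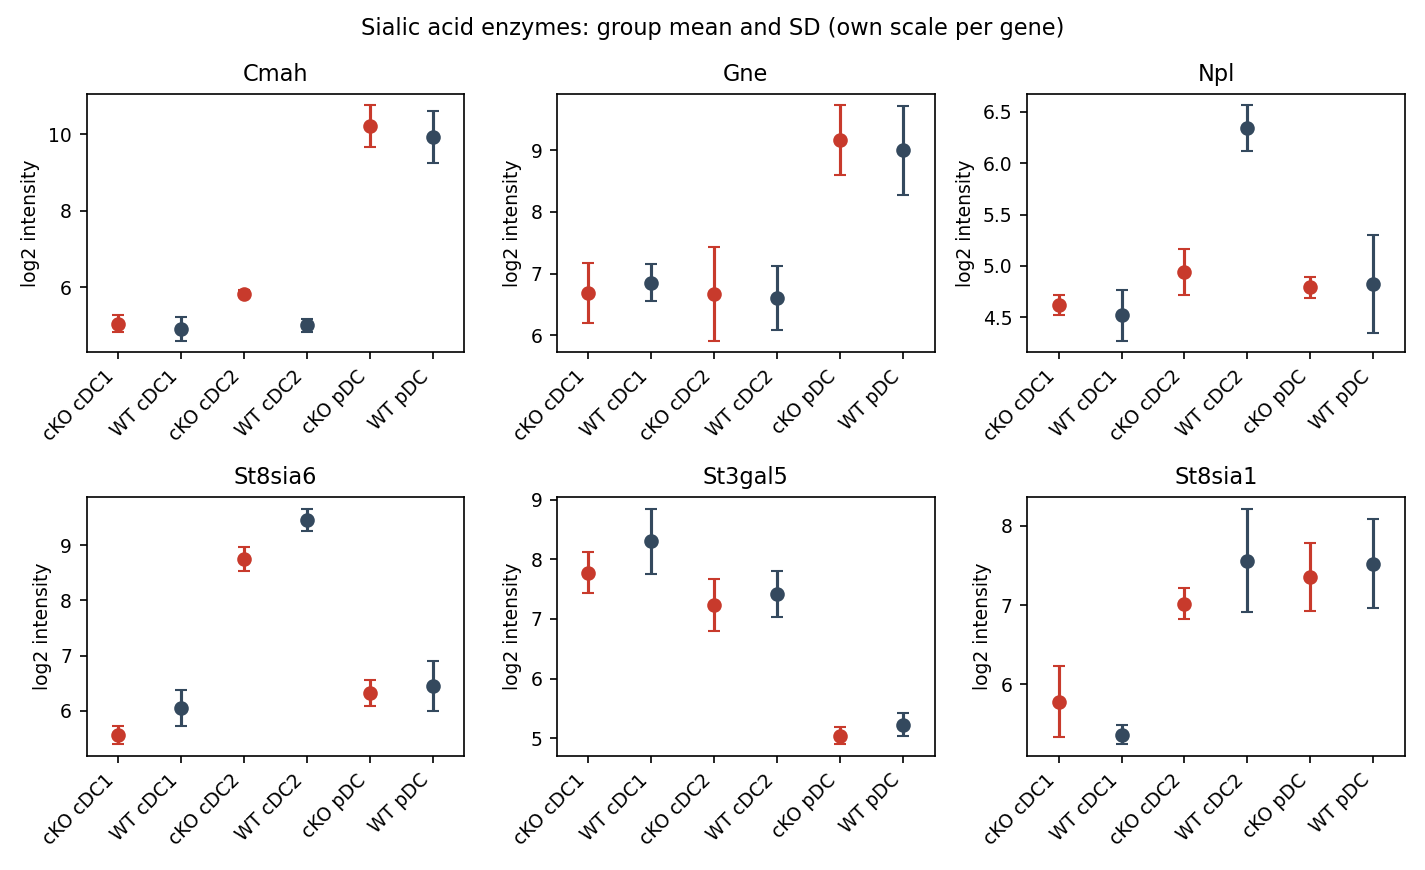
Mean log2 intensity with its SD (vertical axis, own scale for each gene) of 6 genes of sialic acid metabolism in the 6 groups, cKO in red and WT in dark blue. Cmah and Gne are highest in pDC of both genotypes, St8sia6 in cDC2, and Npl averages 4.94 in cKO cDC2 against 6.34 in WT cDC2.

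Genes beside the Siglecs on the chromosome were read for comparison, chosen after their values were seen, as the nearest tested protein-coding gene on each side in the RefSeq order. Up to 2 other genes lay between a Siglec and such a neighbour. Beside Cd33 they were Zfp658, with a log2 difference of 0.94 ± 0.32 in cDC1 (limma adjusted p = 0.496), and Iglon5, at -0.04 ± 0.17 (adjusted p = 1). Beside Cd22 they were Ffar2, at 0.92 ± 0.35 (limma adjusted p = 0.739), and Hamp2, at -0.04 ± 0.27 (adjusted p = 1). Neither nearest tested neighbour of Cd33 or Cd22 passed the test where these genes rose, and genes farther off were not read for them. Beside Siglece, the zinc finger gene Zfp719 rose in cKO cDC1 by 1.83 ± 0.33 (limma adjusted p = 0.00311), a call lost without WT cDC1 array 2 (adjusted p = 0.0677). Zfp719 lies between Cd33 and Siglece, beyond Zfp658 as seen from Cd33, so a called gene is also close to Cd33.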

How the data were processed

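The deposited intensity values are 1 per probe set and array on a linear scale, made by the authors with Affymetrix Expression Console and RMA per the submitters' processing notes (no version or build is given in the sources used here). Such processing corrects background and summarises probes, which compresses differences near background. Log2 was taken. Of 28853 probe sets, 21789 named 1 gene and 21698 of these matched the RefSeq gene table. A gene was tested when any of its probe sets was brighter than the median of the array on 3 or more arrays. Of the probe sets that passed, the one with the highest mean stood for the gene. The Siglecs, the gene and marker lists and the tests were chosen with earlier results of these data known. The named genes were all 6 Siglecs, every list gene that passed a genotype test, and the 3 genes most like each Siglec. For a Siglec or sialic acid list with none passing, the member with the largest difference was named. Other genes of these lists and the neighbours are marked as chosen after their values were seen. Other markers were named as examples only.

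Means of the 6 groups were fitted to all 23 arrays with limma 3.58.1 in R 4.3.3 (lmFit and eBayes, 17 residual degrees of freedom, 12 contrasts), two-sided, with Benjamini-Hochberg adjustment over 12157 genes and a threshold of 0.05. A bound ("at least") sets a group that is below the array median on all its arrays at those medians. It is taken from group means and does not allow for the spread between arrays. The fit was tested on simulated data. Figures used matplotlib 3.10.9. The number of arrays limits the precision.

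Arrays of the same number in the labels deviated together from their group means between cKO and WT cDC1 (r of 0.439 to 0.537 over 3 pairs) and between WT cell types (0.378 to 0.704), but not in every pair in cDC2 (-0.08 to 0.681) or pDC (-0.261 to 0.644), nor between cKO cDC1 and cDC2 (-0.297 to 0.596) or pDC (-0.204 to 0.515). Between cKO cDC2 and pDC the range was -0.051 to 0.617, and 4 of 5 arrays matched best at their own number. Of the cKO cDC1 arrays 0 of 4 did so with cKO cDC2, and 0 of 4 with cKO pDC. In each pair of WT cell types 3 of 3 did. The number was therefore a block only as an alternative. Other alternatives were quantile normalization, 3 filter or probe set choices, an intensity trend, array weights, the array set as a term or apart, leaving out arrays and, added after the data were seen, setting values below the array median at that median.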

Additional observations from a re-analysis of the deposited data

Results flagged for a closer look

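Cd22 on cKO cDC2 array 2 read 8.68, apart from the other 4 arrays of its group, which read 7.60 to 7.88; the gap was 0.74 of the range of the group. Chance alone sets about 1 in 20 such groups apart, and 18 groups were examined. Without that array the Cd22 difference between the cDC2 and pDC genotype effects passed the limma test (adjusted p = 0.0136).

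The genotype effect differed between cell types by limma's test of the difference for Cd22 in cDC1 minus cDC2 (2.89), and for Cd33 in cDC1 minus cDC2 (2.22), cDC1 minus pDC (4.17) and cDC2 minus pDC (1.95). With values below the array medians set at them, the Cd33 differences of cDC1 were 1.63 and 3.57 in the same order.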

How the results depend on the processing

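Over 47 differences of single Siglecs, 647 alternative values kept direction and side of the threshold in 593 cases, lost a call in 24, gained one in 20 and changed sign in 10, none of them a called difference. The sign changes were Cd22 in cKO cDC2 minus pDC at -0.03 with quantile normalization and -0.39 in the higher-median arrays, Cd33 in the same pair at -0.05 with array weights, Siglecg in pDC cKO minus WT at 0.03 with array weights and 0.01 without the high-Xist arrays, Siglech in cDC1 cKO minus WT at 0.12 with array weights and 0.01 in the higher-median arrays, and Siglech in pDC cKO minus WT at 0.02 with quantile normalization, 0.06 in the higher-median arrays and 0.02 without the high-Xist arrays. Array weights moved the median of all genes in cKO minus WT cDC1 to 0.22. Counts of Siglecs called are listed only where they changed by a factor of 2 or more. Smaller changes are left out of the list. For example, the array set as a term added Siglece to WT cDC1 and cDC2 (limma adjusted p = 0.029) and to WT cDC2 and pDC (0.0249). It also added Cd22 to WT cDC1 and pDC (0.0497). The number of Siglecs called became, with quantile normalization, 1 for cKO cDC1 and cDC2, 2 for cKO cDC1 and pDC and 2 for the cDC2 minus pDC genotype effects. With array weights it was 4 for cKO cDC1 and cDC2 and 5 for cKO cDC1 and pDC, both including Cd33 and the last also Siglece (limma adjusted p = 0.0106), which is below background in both groups. With a stricter filter, and likewise with values below the array median set at it, it was 1 for cKO cDC1 and cDC2. With a random replicate block, and likewise with the array set as a term, it was 3 for cKO cDC1 and pDC and 2 for the cDC2 minus pDC genotype effects. In the lower-median arrays alone it was 1 for cKO cDC1 and cDC2 and 1 for cKO cDC2 and pDC. In the higher-median arrays alone it was 1 for cKO cDC1 and cDC2, 1 for cKO minus WT in cDC1 and 2 for WT cDC2 and pDC. In either set it was 0 for the cDC1 minus cDC2 and the cDC2 minus pDC genotype effects, and 0 for the cDC2 minus pDC effects without the high-Xist arrays; sets hold fewer arrays, and the cause was otherwise not tested. The random replicate block gave limma adjusted p values of 0.0391 for Cd22 and 0.0437 for Siglecg in cKO cDC1 against pDC, and 0.0322 for Cd22 in the cDC2 minus pDC genotype effects. In cKO cDC1 against pDC 0 of 4 arrays matched best at their own number, so the block may join unrelated arrays there. Blocks within WT arrays changed the 3 calls given above for Cd22 and Siglece, and no block changed another call. Leaving out 1 array each gave 1 to 2 Siglecs called for cKO cDC1 and cDC2, for cKO cDC1 and pDC and for the cDC2 minus pDC genotype effects. Signs changed within the leave-out ranges for Cd22 (-0.11 to 0.23) and Cd33 (-0.02 to 0.28) in cKO cDC2 minus pDC, Siglece in cDC2 cKO minus WT (-0.11 to 0.39), Siglecg in pDC cKO minus WT (-0.16 to 0.02), and Siglech in cDC1 (-0.18 to 0.09), cDC2 (-0.50 to 0.19) and pDC cKO minus WT (-0.12 to 0.05). Signal over background limits Siglec1 and Siglece outside cDC2.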
